A study of Mus musculus with 6 samples.

Results

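miR-193, miR-193b and miR-365 are microRNAs encoded in 2 related clusters of the mouse genome, and 4 of the 695 rows of the deposited table carried their names: mmu-miR-193, mmu-miR-193*, mmu-miR-193b and mmu-miR-365, written below without the prefix for mouse. The rows were taken by name alone, whatever their values. Their levels were read on 1-colour microarrays from 3 liver tumours and, as the comparison tissue, in 3 pieces of normal-looking liver lying next to those tumours. All 6 samples came from C57BL/6J mice aged 6 months that had been given 3E10 particles of the adeno-associated virus vector AAV-Rian-CMV in a superficial temporal vein on day 1 after birth. The vector was built for gene targeting at Rian, a non-coding RNA gene. The adjacent pieces therefore carry the same injection as the tumours, and no liver of an uninjected mouse was analysed here. The labels number both tissues 1293, 1309 and 1316, which pairs each tumour with the liver beside it, although 1 label of the third tumour reads 1306. No label says whether the 3 tumours came from separate animals, so p-values measure only the spread between these samples.

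A microRNA gene is transcribed as a longer RNA that folds into a hairpin, and the hairpin is cut to release a short mature strand from each arm. One strand usually enters the silencing complex as the guide, and it recognises its target messenger RNAs mainly through its seed, bases 2 to 8 from the 5′ end. In the naming of the table an asterisk marks the less abundant strand of a hairpin, here miR-193*. miR-193b and miR-365 are known for promoting brown fat differentiation in mouse. In human cancer cells miR-193b is known to lower the urokinase plasminogen activator and cyclin D1, and miR-193a and miR-193b are widely described as restraining growth.

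The sequences show which rows can be told apart. Mature sequences from RefSeq (build GRCm38.p6) matched all 4 rows, with miR-193 and miR-193* taken as the 3p and 5p strands of the hairpin now named miR-193a, and with miR-365 taken as the 3p strand. They are printed 5′ to 3′ with the seed in capitals, to show the seed that the miR-193 paralogs share.
miR-193: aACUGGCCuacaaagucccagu
miR-193b: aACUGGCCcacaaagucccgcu
miR-193*: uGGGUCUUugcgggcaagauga
miR-365: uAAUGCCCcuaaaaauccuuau

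miR-193 and miR-193b had the same seed and were identical at 19 of 22 bases. Counted from 1 at the 5′ end, with the base of miR-193 first, they differed by U9C, A20G and G21C, all outside the seed. Among all mature mouse sequences of the RefSeq table, no other name had the seed of miR-193 and miR-193b, and none but miR-365 had its seed. With 3 differing bases, an array probe for one miR-193 paralog may also read the other, and how the signal splits between them was not tested.

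In RefSeq, miR-193 lies at chr11:79712009-79712030 and miR-193* at chr11:79711975-79711996, both on the plus strand of GRCm38.p6. miR-193b lies at chr16:13449570-13449591, also on the plus strand. miR-365 has 2 sources with the same mature sequence, at chr11:79726467-79726488 and chr16:13453895-13453916. The hairpins are printed with the measured 3p strand in capitals, to show that the same miR-365 strand sits in both clusters.
Mir193a: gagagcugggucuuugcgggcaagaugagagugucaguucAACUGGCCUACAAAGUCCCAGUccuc
Mir365-2: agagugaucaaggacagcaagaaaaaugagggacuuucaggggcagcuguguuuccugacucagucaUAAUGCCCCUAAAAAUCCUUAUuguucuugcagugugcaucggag
Mir193b: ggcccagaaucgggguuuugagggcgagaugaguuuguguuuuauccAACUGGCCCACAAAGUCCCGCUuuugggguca
Mir365-1: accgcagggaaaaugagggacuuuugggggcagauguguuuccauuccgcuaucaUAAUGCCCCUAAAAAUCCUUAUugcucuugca

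On chromosome 11, 14365 bases separate Mir193a from Mir365-2, between the protein-coding genes Rab11fip4 and Utp6. On chromosome 16, 4238 bases separate Mir193b from Mir365-1, between Mrtfb and Parn, and both hairpins overlap the annotated long non-coding RNA genes Gm32817 and Gm53058. The array row of miR-365 therefore cannot be assigned to either cluster. miR-193 and miR-193b are each encoded in only 1 of them, apart from any signal their probes share.

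**Figure D1:**
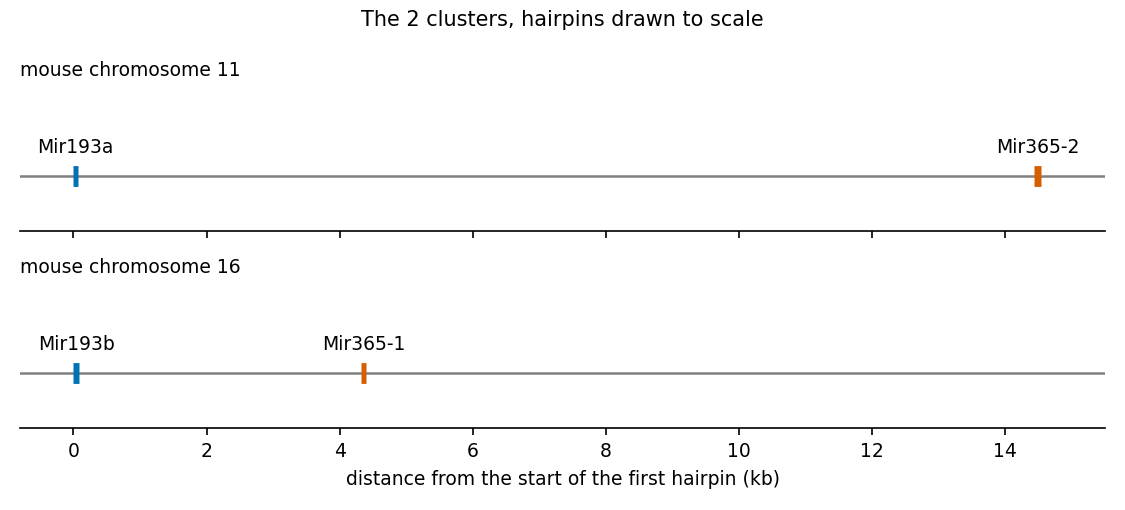
Map of the 2 clusters, with the distance from the start of the first hairpin in kb along the horizontal axis and each hairpin drawn to scale as a coloured block. Mir193a and Mir365-2 lie 14365 bases apart on chromosome 11, and Mir193b and Mir365-1 lie 4238 bases apart on chromosome 16.

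The comparison of tumour with adjacent liver gave the paralogs differences of opposite sign. miR-193b had a higher level in every tumour than in any adjacent piece, by 1.41-fold on average. Its paralog miR-193 and the shared cluster partner miR-365 had lower levels in every tumour, by 1.52-fold and 1.64-fold. None of these differences passed the test over all microRNAs with all 6 arrays, and miR-193* stayed near the lower end of the scale in both tissues. In bulk tissue, fewer cells of a type and less RNA per cell cannot be told apart.

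mmu-miR-193b, the paralog from chromosome 16, had log2 values of 7.51, 7.03 and 7.37 in tumours 1293, 1309 and 1316, against 6.83, 6.77 and 6.82 in the adjacent pieces of the same numbers. The 3 tumours were all above the 3 adjacent pieces, and tumour 1309 was the lowest of them. The means were 7.31 ± 0.25 in tumours and 6.81 ± 0.03 in adjacent liver (SD, n = 3 each). The log2 difference was 0.50 ± 0.13 (SE; 95% interval 0.19 to 0.81), with an unadjusted p of 0.0072 and an adjusted p of 0.11 in limma, a linear model fitted across all 695 rows with Benjamini-Hochberg adjustment. With a threshold of 0.05 on the adjusted p, miR-193b was not called.

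mmu-miR-193, the paralog from chromosome 11, was the brightest of the 4 rows. It had log2 values of 8.42, 8.85 and 8.43 in tumours 1293, 1309 and 1316, against 8.97, 9.30 and 9.24 in the adjacent pieces. All 3 tumours were below all 3 adjacent pieces, but tumour 1309 and adjacent piece 1293 were only 0.12 apart. The means were 8.57 ± 0.25 in tumours and 9.17 ± 0.18 in adjacent liver (SD, n = 3 each). The log2 difference was -0.60 ± 0.15 (SE; 95% interval -0.97 to -0.24; limma unadjusted p = 0.0070, adjusted p = 0.11).

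mmu-miR-365, which both clusters encode, is reported to act on cyclin D1 in human cells. Its log2 values were 7.06, 7.86 and 7.39 in tumours 1293, 1309 and 1316, against 8.18, 8.16 and 8.12 in the adjacent pieces. The adjacent pieces were nearly alike, with a range of 0.06, whereas the tumours spread over 0.79, all of them below. The means were 7.44 ± 0.40 in tumours and 8.15 ± 0.03 in adjacent liver (SD, n = 3 each). The log2 difference was -0.71 ± 0.19 (SE; 95% interval -1.19 to -0.24; limma unadjusted p = 0.010, adjusted p = 0.12).

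miR-193*, the strand from the other arm of the miR-193a hairpin, had log2 values of 5.99, 6.26 and 6.25 in tumours 1293, 1309 and 1316, against 6.26, 6.40 and 6.31 in the adjacent pieces. The groups overlapped, and the values lay near or below the array medians of 6.39 to 6.44. No detection calls were analysed here, so these values may be background. The log2 difference was -0.16 ± 0.09 (SE; 95% interval -0.39 to 0.07; limma adjusted p = 0.45).

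**Figure D2:**
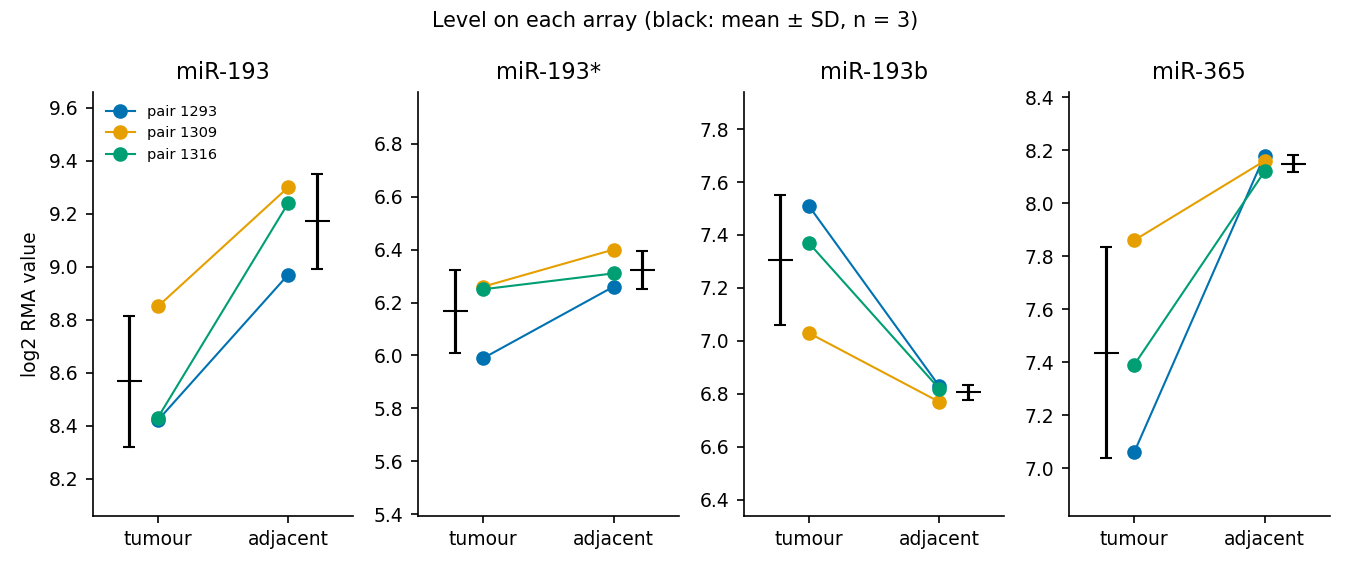
Log2 RMA value of each of the 4 rows on each array, tumours left of adjacent liver, with a line joining each tumour to its adjacent piece and black marks for mean ± SD (n = 3). Every panel spans the same height on the log2 scale. For miR-193b the 3 tumours (7.03 to 7.51) lie above the adjacent pieces (6.77 to 6.83), and for miR-365 they lie below them (7.06 to 7.86 against 8.12 to 8.18).

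Of the 4 rows, 0 were called by limma with all 6 arrays, where 2.88% of the 695 rows were called. At an unadjusted p below 0.05, miR-193 and miR-365 were lower, as were 14.1% of all rows, and miR-193b was higher, as were 5.9%. The groups did not overlap for 3 of the 4 rows. Over all rows, groups without overlap made up 22.9% with tumours lower and 8.63% with tumours higher. By log2 difference, miR-365 ranked 18th and miR-193 30th from the most lowered of the 695 rows, while miR-193b ranked 32nd from the most raised.

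The calls depended on which tumours were used. Without tumour 1309, limma called miR-193 (-0.75, adjusted p = 0.023), miR-193b (0.64, adjusted p = 0.0099) and miR-365 (-0.92, adjusted p = 0.011), in a setting where 8.35% of all rows were called. Without tumour 1293 it called miR-193b (0.40, adjusted p = 0.038) and miR-365 (-0.53, adjusted p = 0.037), but not miR-193 (-0.53, adjusted p = 0.055). In that setting 19.6% of all rows were called. With array weights, which give arrays that deviate more a smaller say, limma called miR-193 (-0.57, adjusted p = 0.023), miR-193b (0.43, adjusted p = 0.012) and miR-365 (-0.58, adjusted p = 0.011), along with 19.9% of all rows. Over all 18 alternatives, limma's adjusted p ranged from 0.023 to 0.60 for miR-193, from 0.0099 to 0.60 for miR-193b and from 0.011 to 0.60 for miR-365.

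**Figure D3:**
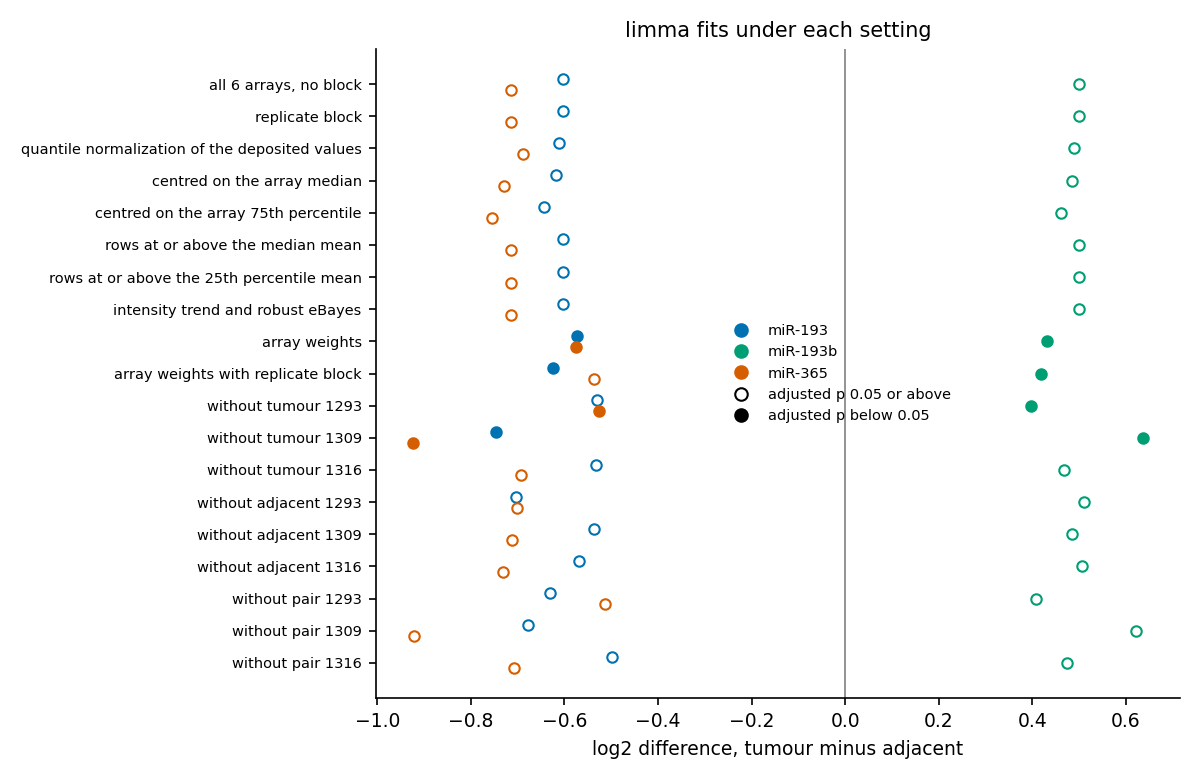
Log2 difference, tumour minus adjacent, of miR-193, miR-193b and miR-365 in limma under each setting. Filled points have an adjusted p below 0.05. miR-193b stays between 0.40 and 0.64 and the other two stay below 0, while the side of the threshold changes with the arrays used.

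Within pairs, the signs were the same in all 3. miR-193b was higher in the tumour by log2 differences of 0.69, 0.26 and 0.55 for pairs 1293, 1309 and 1316. The log2 differences of miR-193 were -0.55, -0.45 and -0.81. Those of miR-365 were -1.12, -0.30 and -0.73, or 2.17-fold lower in tumour 1293 and 1.23-fold lower in tumour 1309. Pair 1309 gave the smallest difference for all 3. The order of the tumours was reversed between miR-193b and miR-365: tumour 1293 was the highest for miR-193b and the lowest for miR-365, and tumour 1309 was the lowest for miR-193b and the highest for miR-365. With 3 tumours this order is a description only.

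**Figure D4:**
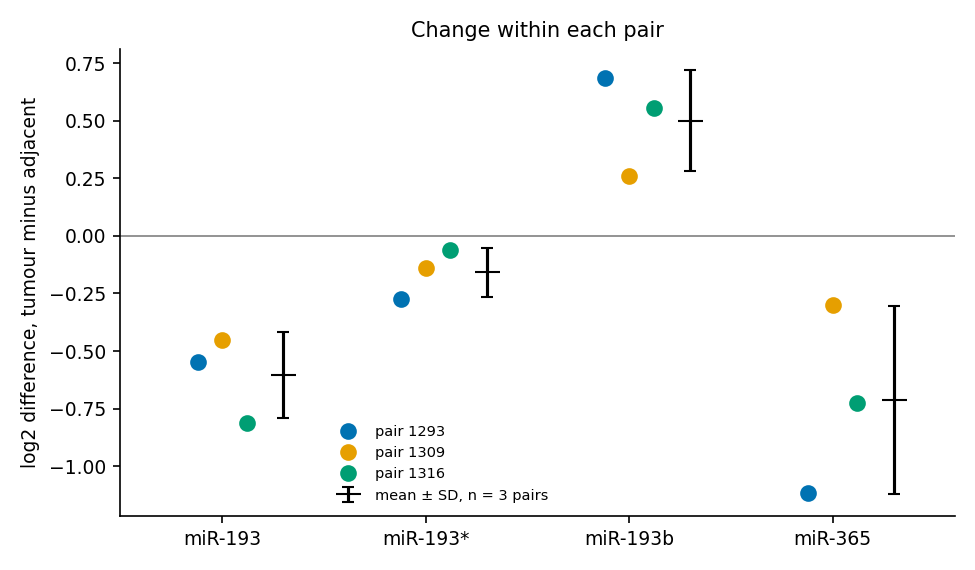
Log2 difference, tumour minus adjacent, in each of the 3 pairs for the 4 rows, with black marks for mean ± SD (n = 3 pairs) and a line at 0. The 3 points of miR-193b lie above 0 (0.26 to 0.69), and those of miR-193 (-0.81 to -0.45) and miR-365 (-1.12 to -0.30) lie below it.

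Whether the rows changed by unequal amounts was asked through the difference of 2 rows on the same array, which cancels any scaling that shifts both alike. Levels of different probes are not comparable, so only the change of this difference between tissues has a meaning. miR-193b minus miR-193 was -0.91, -1.82 and -1.05 in tumours 1293, 1309 and 1316, against -2.14, -2.53 and -2.42 in the adjacent pieces. Every tumour was above every adjacent piece. The difference between the paralogs' changes was 1.10 ± 0.30 (SE; 95% interval 0.26 to 1.95 from the spread within groups), a 2.15-fold shift of their ratio. A two-sided exact permutation test over the 6 arrays had p = 0.10, the lowest possible with 3 against 3, and 0.12 after Benjamini-Hochberg adjustment over the 6 pairs of rows compared.

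miR-193b minus miR-365, the guide strands encoded in the chromosome 16 cluster, was 0.45, -0.82 and -0.02 in tumours 1293, 1309 and 1316, against -1.35, -1.38 and -1.30 in the adjacent pieces. The difference between their changes was 1.22 ± 0.37 (SE; 95% interval 0.18 to 2.25; exact permutation p = 0.10, adjusted 0.12). The interval assumes the same spread in both tissues, although the SD was 0.64 in tumours and 0.04 in adjacent liver. It may thus be too narrow. For miR-193 and miR-365, the guide strands encoded in the chromosome 11 cluster, the difference between the changes was 0.11 ± 0.16 (SE; 95% interval -0.34 to 0.56; exact permutation p = 0.60, adjusted 0.60). That interval includes 0 and differences of up to 0.56, so equal change was not shown. Without pair 1293 this difference had the opposite sign (-0.12).

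The other 3 of the 6 pairs of rows involve miR-193*, which may be background in both tissues. Each had an exact permutation p of 0.10 (adjusted 0.12), and nothing is read from them.

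The shares of lower and higher rows were also taken among bright rows, a grouping chosen after the values were seen. It uses the mean over both tissues, since brightness in adjacent liver alone favours rows that are lower in tumours. This mean in turn lets in rows that are dim in adjacent liver but high in tumours, such as miR-376b (6.33 and 9.53). miR-193, miR-193b and miR-365 all belonged to the 174 rows with the highest mean over all 6 arrays, at least 6.77. Of these 174, 75.9% had a lower mean in tumours, with a median log2 difference of -0.29, against 59.6% and -0.03 over all 695 rows. Groups without overlap and with tumours lower made up 56.3% of the 174, miR-193 and miR-365 among them. Groups without overlap and with tumours higher made up 14.9%, and miR-193b was among them. It ranked 28th from the most raised of the 174. Both the 14.9% and this rank count rows that entered through high tumour values, so neither is a neutral background for miR-193b.

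**Figure D5:**
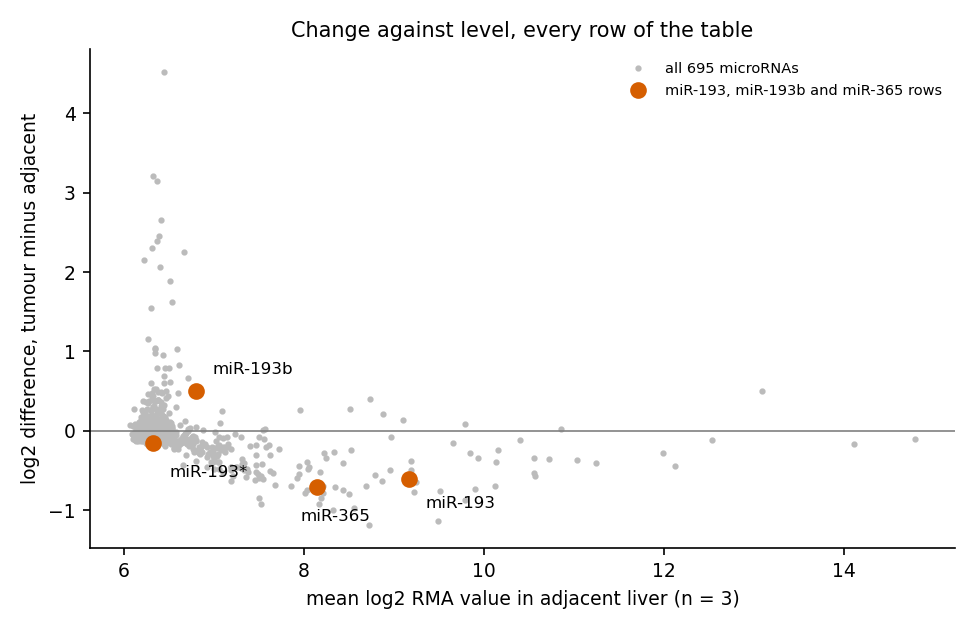
Log2 difference, tumour minus adjacent, against the mean log2 RMA value in adjacent liver for all 695 rows (grey), with the 4 rows named in orange. miR-193 (-0.60) and miR-365 (-0.71) lie among the many bright rows below 0, and miR-193b (0.50) lies above 0 at an adjacent mean of 6.81.

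The rows most like each member over the 6 arrays were found among the 348 rows at or above the median brightness, by Pearson correlation. The 6 arrays fall into 2 tissues, so these values reflect the difference between tissues as well as the order within them, and they are given as a description. For miR-193 the nearest were miR-30c (r = 0.986), miR-15a (0.982), miR-192 (0.969), miR-26b (0.967) and miR-702 (0.966). For miR-365 they were miR-203 (0.998), miR-107 (0.995), miR-26a (0.994), miR-194 (0.993) and miR-139-5p (0.992). Of these nearest rows, miR-30c, miR-192 and miR-194 are on the list of hepatocyte microRNAs described below, and the others are not. Whether this differs from other lowered rows was not tested. For miR-193b the nearest were miR-369-5p (0.973), miR-329 (0.967), miR-434-3p (0.967), miR-337-3p (0.966) and miR-299* (0.958), all encoded in the Dlk1-Dio3 region that contains Rian. The most raised rows of the table, miR-154* (4.52), miR-376b (3.20) and miR-410 (3.15), are encoded there too. Among the 174 brightest rows, 26 were higher in every tumour than in any adjacent piece. The most raised of them, from miR-154* down to miR-369-5p (0.79), are all encoded in that region. Raised rows thus have many such rows to correlate with, and whether this likeness is particular to miR-193b was not tested.

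Among the members themselves, miR-193 and miR-365 had a correlation of 0.920, and miR-365 ranked 32nd of the 347 other rows by likeness to miR-193. miR-193b correlated with miR-365 at -0.993, the lowest of the 347 rows compared with miR-365, and with miR-193 at -0.956.

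Other microRNAs linked to brown fat were compared as 2 lists. Of 12 measured microRNAs linked to brown or beige fat, miR-193b and miR-365 included, limma called 0. At an unadjusted p below 0.05, 7 of the 12 were lower, against 14.1% of all rows, and 1, miR-193b, was higher, against 5.9% of all rows. The median log2 difference was -0.43, against -0.03 over all rows and -0.29 over the 174 brightest. Groups did not overlap, with tumours lower, for 9 of the 12, as for 22.9% of all rows and 56.3% of the 174 brightest. With tumours higher this held for 1 of the 12, against 8.63% and 14.9%. A lower mean in tumours was seen for 10 of the 12, where 59.6% of all rows and 75.9% of the 174 brightest had one, and miR-193b and miR-182 were the exceptions. The largest differences were those of miR-26a (-1.14), miR-455 (-0.85) and miR-365 itself.

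Of 8 microRNAs linked to holding brown fat back, limma called 0. At an unadjusted p below 0.05, 1 was lower and 1 higher, against the same 14.1% and 5.9% of all rows. The median was -0.18, and -0.05 without tumour 1293, where that of the first list was -0.35. A lower mean in tumours was seen for 6 of the 8, against 59.6% of all rows and 75.9% of the 174 brightest. Groups did not overlap, with tumours lower, for 3 of the 8, against 22.9% and 56.3%. With tumours higher this held for 1 of the 8, against 8.63% and 14.9%. The largest differences were those of miR-27b (-0.52), miR-106b (-0.44) and miR-34a (0.26).

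Markers of the tissue and of other cell types were compared in the same samples. miR-122, the main microRNA of hepatocytes, was the brightest row on all 6 arrays (14.69 ± 0.23 in tumours and 14.80 ± 0.04 in adjacent liver, SD, n = 3 each). All 13 measured hepatocyte microRNAs had a lower mean in tumours, and their summed level on the log2 scale was 15.06 to 15.39 in tumours and 15.43 to 15.44 in adjacent liver. Sums were taken before the logarithm, so miR-122 makes up most of the hepatocyte sum. The groups overlapped for miR-122 itself. Means were lower in tumours for 5 of 5 biliary, 5 of 6 stromal, 4 of 6 leukocyte, 2 of 2 endothelial, 2 of 2 erythroid and 5 of 5 muscle markers, against 59.6% of all rows and 75.9% of the 174 brightest. Of all these markers limma called only the biliary miR-200a (-0.63) and miR-200b (-0.57), both lower (adjusted p = 0.042 each). At an unadjusted p below 0.05, 9 of 13 hepatocyte, 4 of 5 biliary, 3 of 6 stromal, 2 of 6 leukocyte and 1 of 2 endothelial markers were lower, with 0 erythroid and 0 muscle markers, against 14.1% of all rows. Groups did not overlap, with tumours lower, for 9 of 13 hepatocyte, 4 of 5 biliary, 3 of 6 stromal and 2 of 6 leukocyte markers. The same held for 1 of 2 endothelial, 1 of 2 erythroid and 1 of 5 muscle markers, for 22.9% of all rows and for 56.3% of the 174 brightest.

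The summed levels of the biliary list were 8.70 to 8.94 in tumours and 9.20 to 9.32 in adjacent liver, and those of the stromal list 9.33 to 9.52 in tumours and 9.81 to 9.93 in adjacent liver. In tumours the biliary markers averaged 6.32 (miR-200c) to 6.66 (miR-429), near the array medians, so their tumour sums may be largely background. Leukocyte sums overlapped, with 9.48 to 10.03 in tumours and 9.97 to 10.18 in adjacent liver. Endothelial sums were 10.25 to 10.56 in tumours and 10.49 to 10.59 in adjacent liver, and erythroid sums 9.44 to 10.08 in tumours and 9.50 to 10.41 in adjacent liver. Muscle markers all averaged 6.58 or less in both tissues, near the lower end of the scale, and their sums were 8.54 to 8.73 in tumours and 8.75 in each adjacent piece. No marker is at 0 on this scale. The part of these values in the differences of miR-193, miR-193b and miR-365 was not tested.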

How the data were processed

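Total RNA of frozen tissue carried a cyanine 3-pCp label and was read on Agilent microRNA arrays, per the labels' protocols. The authors deposited log2 values; RMA, which corrects background, normalizes by quantiles and summarises probes, and limma are named, per the submitters' processing notes, without versions. No source used here states the logarithm's base, taken as 2. The table held 695 rows and 0 missing values. The number of arrays limits the precision.

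Tumour was compared with adjacent liver by limma 3.58.1 (R 4.3.3; lmFit and eBayes) over all 695 rows, with no block. Tests were two-sided, p-values were adjusted by Benjamini-Hochberg, and 0.05 was the threshold. Differences between rows were tested by exact permutation over the 6 arrays. The tumours varied more than the adjacent pieces (ratio of median SDs 2.85). The labels pair each adjacent piece with a tumour of the same number. Deviations from group means correlated at -0.048, 0.067 and -0.0031 in pairs 1293, 1309 and 1316. The fits were tested on simulated data with the same spread in both tissues, so that test does not cover the unequal spread seen here.

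Rows were named by rule: every member, up to 5 most alike rows for each guide strand, and up to 3 members of a list. The members, lists and rules were chosen with earlier results of these data known. Of the lists, miR-885-5p, miR-1, miR-208a, miR-455-3p and miR-455-5p matched no row by name. The table held rows named miR-1a (6.20 in tumours, 6.31 in adjacent liver) and miR-208a-3p (6.11 and 6.20), which the muscle counts leave out. The arms of miR-193, miR-193* and miR-365 were assigned from the older naming. Alternatives were pairing as a block, a further quantile normalization, centring, filters on dim rows, an intensity trend with robust eBayes, array weights, and leaving out arrays or pairs. Figures came from matplotlib 3.10.9 (Python 3.11.15).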

Additional observations from a re-analysis of the deposited data

How the results depend on the processing

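In every one of the 18 alternatives for miR-193, miR-193b and miR-365, and the 16 that kept miR-193*, the log2 difference kept its sign. Under the replicate block of pair numbers the values were the same, with limma adjusted p-values of 0.13 for miR-193 (-0.60), 0.16 for miR-193b (0.50) and 0.17 for miR-365 (-0.71). Calls appeared with array weights (-0.57 for miR-193, 0.43 for miR-193b, -0.58 for miR-365), with array weights and the block (-0.62 for miR-193, 0.42 for miR-193b), and without tumour 1293 or 1309. The cause was not tested. Leaving out an array or a pair gave -0.75 to -0.50 for miR-193, 0.40 to 0.64 for miR-193b, -0.92 to -0.51 for miR-365 and -0.21 to -0.07 for miR-193*. Filters on dim rows removed miR-193*.

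Over all rows limma called 18 higher and 2 lower with all 6 arrays. With array weights it called 51 higher and 87 lower, and with weights and the block 38 and 35. The block left 0 lower (87 at an unadjusted p below 0.05), as did the intensity trend (79). Leaving out arrays or pairs gave 8 to 51 higher and 0 to 85 lower (16 to 137 lower at an unadjusted p below 0.05).

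The difference between the changes of miR-193b and miR-193 stayed between 0.93 and 1.38 when arrays or pairs were left out, and that between miR-193b and miR-365 between 0.92 and 1.56. That between miR-193 and miR-365 ranged from -0.12 to 0.24, with the sign opposite to the 0.11 of all arrays without tumour 1293 (-0.0041), adjacent piece 1293 (-0.0036) or pair 1293 (-0.12). Sign flips over the 3 pairs cannot give an exact p below 0.25. Rows near 6 may be background, which would understate differences of dim rows.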

Other observations

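Other microRNAs whose names differ only in a letter were set beside miR-193 and miR-193b, a comparison chosen after the values were seen. There were 86 such name pairs with both rows at or above the median brightness, and the median absolute difference between their log2 changes was 0.22. The 1.10 between miR-193 and miR-193b ranked 3rd, after miR-376b with miR-376c (2.41) and miR-376a with miR-376c (1.36). In 3 of the 86 name pairs one row was higher in every tumour and the other lower in every tumour: miR-193b (0.50) and miR-193 (-0.60), miR-15b (0.21) and miR-15a (-0.54), and miR-92a (0.40) and miR-92b (-0.20). Rows of let-7 and other large families occur in several name pairs, so the pairs are not independent.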
